A study of Homo sapiens with 12 samples.

Results

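The response of unedited (WT) K562 cells to sodium butyrate was measured across all genes by setting 3 treated RNA-seq libraries against 3 untreated ones, 6 of the 12 libraries of the study. K562 is a human erythroleukaemia line that can make globins and other red cell proteins when exposed to certain compounds. WT cells were left untreated or received 0.75 mM sodium butyrate 24 h after plating and a further dose 48 h after the first, with collection 6 h after the last dose. The remaining 6 libraries came from K562 cells in which HRG1 was knocked out, untreated or treated on the same schedule. HRG1 is the heme transporter encoded by SLC48A1, and the number of knockout clones is not stated. Both genotypes shared the medium, RPMI with heat-inactivated serum, and the series text places the samples at day 8 of differentiation without relating that day to these hours. SLC48A1 stood at 58.9 to 83.8 CPM in the 6 WT libraries and at 2.94 to 10.1 CPM in the 6 HRG1-KO libraries, where CPM is counts per 1000000 after TMM scaling of library sizes.

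Butyrate is a short-chain fatty acid that inhibits class I and class II histone deacetylases, the enzymes that remove acetyl groups from histone tails. Acetylated chromatin is in general more open to transcription, and in erythroid cells butyrate is known for raising fetal globin genes. Histone deacetylase inhibitors are also known in many cell lines for slowing the cell cycle, often with a rise of CDK inhibitors, and for switching on genes that are silent in the lineage.

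RNA of erythroid markers was found in every WT library, with a summed level of 5932 to 33760 CPM. All 12 erythroid identity markers passed the filter on low counts, which looks at all 12 libraries of the study and not at each WT library. At least 10 counts in every WT library were held by 10 of them. The erythroid regulator GATA1 stood at 221 to 598 CPM over the 6 libraries. Lists of other lineages had lower summed levels. Of megakaryocyte and platelet markers 16 of 24 passed (615 to 1345 CPM), and of mast cell and basophil markers 6 of 14 (338 to 1016 CPM). Weaker still, 7 of 17 lymphoid, 6 of 12 endothelial and 14 of 20 monocyte and granulocyte markers passed. Their sums were 18.1 to 58.9 CPM, 11 to 34.8 CPM and 83.2 to 198 CPM. Library totals ran from 19963594 to 29139363 counts, so that 3 counts, taken as the floor of detection, equalled 0.0953 to 0.162 CPM. These floors cover counting error only. Ribosomal RNA genes took 5.21%, 3.19% and 1.00% of counts in untreated replicates 1, 2 and 3 and 6.42%, 1.6% and 0.904% in the treated ones, so that the share was higher with treatment in pair 1 and lower in pairs 2 and 3 (two-sided exact permutation p 0.9 over unpaired groups, n = 3 per group, smallest possible p 0.1). Treated replicate 1 stood apart from the other treated libraries. On the first principal component of the 6 libraries, which held 52.0% of the variance, it lay at -38.8, among untreated replicates at -57.9, -20.2 and -13.5, while treated replicates 2 and 3 lay at 62.2 and 68.1. On the second component (27.1%) it lay at 67.3, above all others. Whether same-numbered libraries came from 1 culture is not stated, and p-values measure the spread between these samples, which may be technical.

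Treated cells differed from untreated cells in 1361 of 15805 tested genes (8.61%), with 864 higher (5.47%) and 497 lower (3.14%). A gene is said to be called, to rise or to fall, where its p from the quasi-likelihood test of edgeR, with replicate number as a block and Benjamini-Hochberg adjustment over all tested genes, was under 0.05. Rises were larger than falls: the median called rise was 1.98 on the log2 scale and the median called fall -0.83. A fitted change of over 1 log2 unit was found for 725 of the rises and for 151 of the falls. All 3 replicate pairs moved in the fitted direction for 1316 of the 1361 genes, and in 1055 the 2 groups did not overlap, against 3429 of all tested genes (21.7%). In 85 of the risen genes every untreated library held 3 counts or fewer, whereas only 1 of the fallen genes was that low in every treated library. The block decided much of the count, since 372 of the 1361 were also called without it. Single libraries did too: 425 genes were called without untreated replicate 2, 376 without treated replicate 2, 527 without treated replicate 3 and 836 without untreated replicate 3, while 2001 were called without treated replicate 1, among them 1186 of the 1361. A core of 287 genes was called in all 6 fits that left out 1 WT library, and genes described below belong to it unless another value is given.

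**Figure D1:**
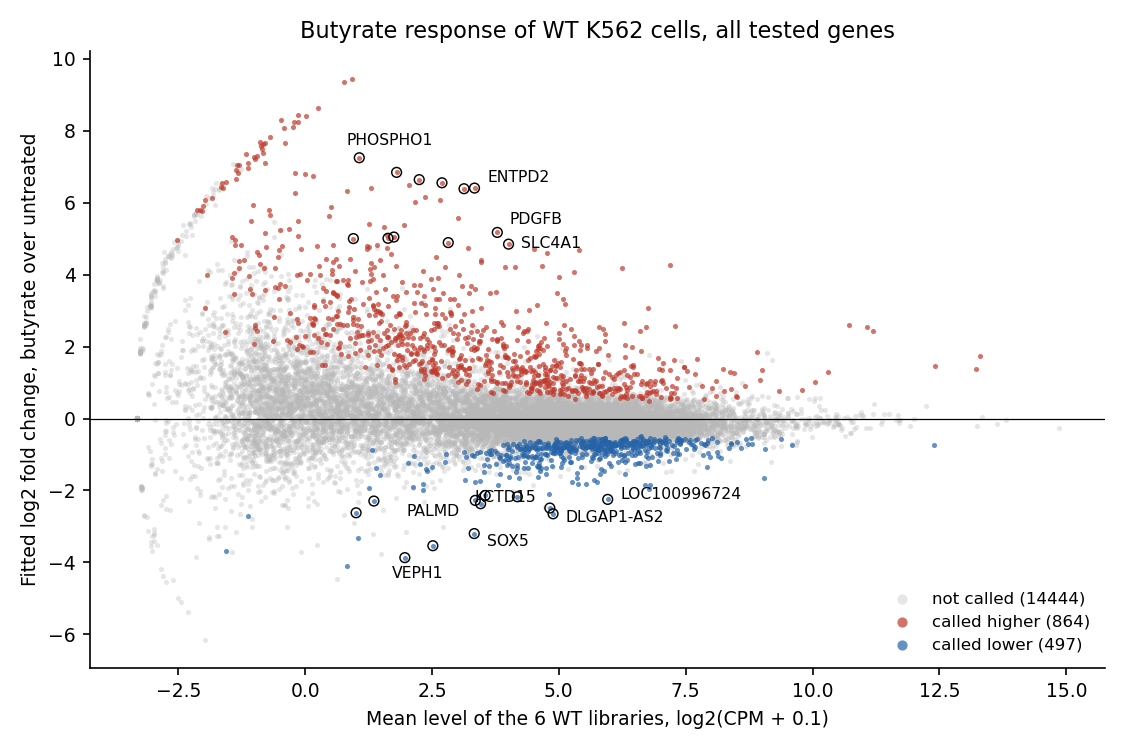
Fitted log2 fold change of butyrate over untreated (vertical axis) against the mean level of the 6 WT libraries as log2(CPM + 0.1) (horizontal axis) for 15805 tested genes. The 864 genes called higher reach larger changes and lie further to the left than the 497 called lower, and circles mark the 12 largest rises and 12 largest falls among genes with 50 counts or more in all 3 libraries of the group where they are higher.

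Rises were concentrated among weakly expressed genes and falls among abundant ones. With genes split into 5 equal bins by their mean level in the 6 libraries, 149, 313, 182, 112 and 108 genes rose from the lowest bin to the highest, and 2, 30, 131, 170 and 164 fell. The median log2 change of all genes in a bin ran the same way, at 0.53, 0.25, -0.05, -0.11 and -0.13. From the lowest bin to the highest it ran from 0.45 to -0.17 in pair 2 and from 0.48 to -0.16 in pair 3. In pair 1 the bin medians were 0, 0.10, -0.10, -0.08 and -0.005. The median standard error also fell along this order, from 0.93 to 0.18, so that smaller changes could be called in abundant genes. At least 0.5 CPM was reached by 13445, 13848 and 14035 genes in untreated replicates 1, 2 and 3 and by 13931, 14606 and 14730 genes in treated ones. The number was higher in the treated library of all 3 pairs, while the groups overlapped (two-sided exact permutation p 0.2 over unpaired groups, n = 3 per group, smallest possible p 0.1). Protein-coding genes made up 792 of the rises and 468 of the falls out of 13157 tested, and of 1278 long noncoding RNA genes 29 rose and 10 fell. RNA of mixed cells was measured, so more cells in a state and more RNA per cell cannot be told apart here or in what follows.

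**Figure D2:**
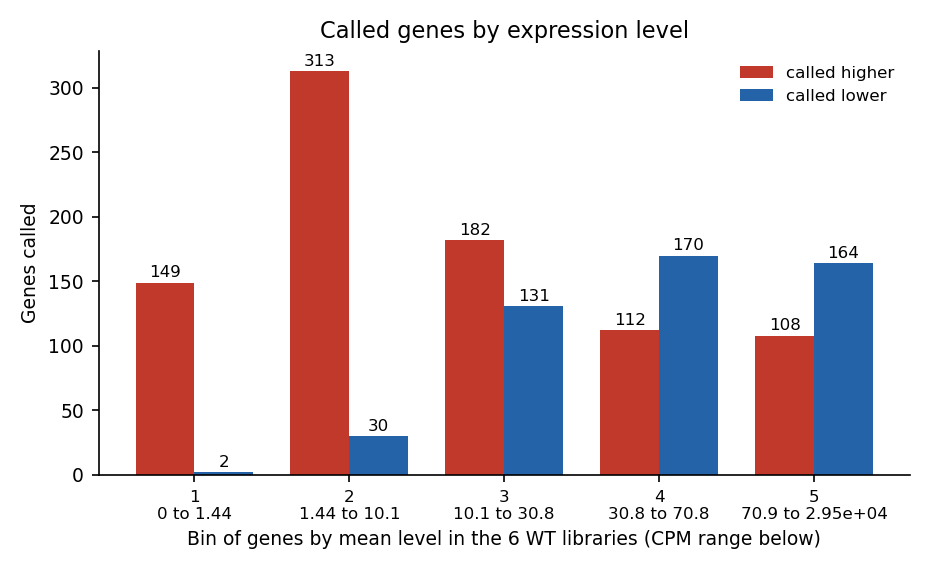
Number of genes called higher and lower with butyrate (vertical axis) in 5 equal bins of the tested genes ordered by mean CPM in the 6 WT libraries (horizontal axis, CPM range of each bin below it). Rises peak at 313 in bin 2 and falls at 170 in bin 4.

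By a rule of size, the 12 largest rises and falls among genes with 50 counts or more in all libraries of their higher group are described first. Among the rises were phosphatases, surface proteins and a growth factor with little or no RNA in untreated cells. ENTPD2, which breaks down extracellular ATP at the cell surface, stood at 0.162, 0.418 and 0.101 CPM in untreated replicates 1 to 3 and at 5.81, 30.5 and 23.1 CPM in treated ones (log2 fold change 6.41, SE 0.56, adjusted p 0.000176). Treated replicate 1 was the lowest of the treated libraries and still above every untreated one. PHOSPHO1, a phosphatase of phosphocholine, was at or under 3 counts in all untreated libraries and at 3.99, 3.88 and 4.04 CPM in treated ones, at least 29.6-fold higher. ALPL, the tissue-nonspecific alkaline phosphatase (6.84), SNCB, which encodes beta-synuclein (6.64), and CEACAM22P, a pseudogene of the carcinoembryonic antigen family (6.39), followed on the log2 scale. PDGFB, a platelet-derived growth factor chain (5.17), CD7, a surface protein of T and NK cells (5.05), and MYH14, a nonmuscle myosin heavy chain (5.01), rose by about as much as SLC4A1, the anion exchanger of the red cell membrane (4.85). In all 9 of these genes all 3 treated libraries lay above all 3 untreated ones. ITGB2, the beta chain of the leukocyte integrins (5.0), did so as well, but it overlaps ITGB2-AS1 (log2 2.57, adjusted p 0.0583), and without a stated strand setting their reads cannot be told apart. LY6G6E (6.55, adjusted p 0.0210) was also in the set. Its adjusted p rose to as much as 0.0960 when untreated replicate 1 or 2 or treated replicate 2 was left out.

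The 12 largest falls were smaller and held several transcription and noncoding genes. PALMD, which encodes palmdelphin, stood at 19.6, 18.9 and 18.3 CPM in untreated replicates 1 to 3 and at 3.84, 4.27 and 4.80 CPM in treated ones (log2 fold change -2.14, SE 0.31, adjusted p 0.00238). Its replicates were close together in both groups and the groups did not overlap. GIPC3, a PDZ domain protein, went from 17.9, 19.0 and 17.9 CPM to 4.51, 2.01 and 4.07 CPM (-2.37, SE 0.38, adjusted p 0.00394). SOX5, a transcription factor of the SOX family (-3.20), DLGAP1-AS2, a noncoding RNA (-2.65), KCTD15, a BTB domain protein (-2.49), LOC101927815 (-2.28) and LOC100996724 (-2.25) also fell on the log2 scale, all without overlap of the groups. For VEPH1 (-3.87), C3orf86 (-3.54), TRDN, which encodes triadin of the calcium release complex (-2.62), and ESRRB, an orphan nuclear receptor (-2.17), the highest adjusted p on leaving out 1 library was 0.0945, 0.0591, 0.0761 and 0.0763. VEPH1 lost the call without untreated replicate 1 or 2 or treated replicate 3, C3orf86 without untreated replicate 2, TRDN without untreated replicate 2 or treated replicate 2 or 3, and ESRRB without treated replicate 2. MIR4740 was the remaining one, and as its hairpin lies within BAHCC1 its counts are uncertain and no value is given.

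Antigen presentation by HLA class I genes was a list with calls in both directions. HLA class I molecules carry peptides to the cell surface; the immunoproteasome subunits PSMB8, PSMB9 and PSMB10 cut the peptides, the transporter made of TAP1 and TAP2 brings them into the endoplasmic reticulum, ERAP1 trims them there, and B2M is the light chain. K562 is known for very low class I expression. Of 20 tested genes of the list 5 rose and 3 fell (40% called, against 8.61% of all genes), with a median log2 change of 0.39 against 0.0014 over all tested genes. TAP1, TAP2, ERAP1, PSMB10, B2M and HLA-E are named here after their values were seen.

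HLA-B, HLA-C, PSMB9 and TAP1, all on chromosome 6, were among the rises. The rise of TAP1 was the least stable of these. Its groups overlapped, and only the removal of treated replicate 1 left it called (adjusted p up to 0.174 otherwise). The promoters of all these genes are shown so that the letters shared by genes that rose side by side can be compared. Each is the 250 bases before the transcription start, from RefSeq on GRCh38.p14, and is printed 5′ to 3′ on the strand of its gene. Capitals mark GGGCGG (the GC box), CCAAT (the CCAAT box), TATAAA (the TATA box) and GAAANNGAAA (the core of the interferon-stimulated response element), each searched on both strands. No match of one motif overlaps a match of another motif in these windows. TAP1 lies on the minus strand at chr6:32853705-32853954, PSMB9 on the plus strand at chr6:32853942-32854191, HLA-B on the minus strand at chr6:31357180-31357429 and HLA-C on the minus strand at chr6:31272093-31272342.
TAP1: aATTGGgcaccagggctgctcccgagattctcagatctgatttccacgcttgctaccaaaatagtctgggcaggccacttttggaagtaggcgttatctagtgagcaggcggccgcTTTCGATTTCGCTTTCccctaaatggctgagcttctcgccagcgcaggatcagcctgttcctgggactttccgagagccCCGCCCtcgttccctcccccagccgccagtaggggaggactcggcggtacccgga
PSMB9: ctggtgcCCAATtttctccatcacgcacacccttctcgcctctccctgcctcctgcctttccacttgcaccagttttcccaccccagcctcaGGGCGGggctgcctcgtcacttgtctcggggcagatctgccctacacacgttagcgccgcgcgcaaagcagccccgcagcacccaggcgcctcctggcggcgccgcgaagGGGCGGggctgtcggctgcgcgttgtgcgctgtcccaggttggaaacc
HLA-B: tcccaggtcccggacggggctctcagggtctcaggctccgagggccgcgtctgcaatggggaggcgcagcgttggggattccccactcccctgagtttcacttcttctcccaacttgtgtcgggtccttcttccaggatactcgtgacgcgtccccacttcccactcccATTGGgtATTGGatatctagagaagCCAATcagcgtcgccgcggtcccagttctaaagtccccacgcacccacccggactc
HLA-C: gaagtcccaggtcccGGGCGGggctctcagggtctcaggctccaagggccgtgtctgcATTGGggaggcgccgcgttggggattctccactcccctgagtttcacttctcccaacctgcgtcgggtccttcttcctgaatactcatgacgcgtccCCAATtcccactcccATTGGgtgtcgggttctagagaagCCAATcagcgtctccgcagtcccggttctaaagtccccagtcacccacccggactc
TAP1 and PSMB9 are transcribed away from each other, with starts 488 bases apart, and their windows share 13 bases. The TAP1 window holds 2 GAAANNGAAA matches, which overlap each other, 1 GGGCGG and 1 CCAAT. The PSMB9 window holds 2 GGGCGG and 1 CCAAT, that of HLA-B 3 CCAAT, and that of HLA-C 4 CCAAT and 1 GGGCGG. The CCAAT of TAP1 and that of PSMB9 are the same site, which lies in the 13 shared bases. Only exact matches are marked. Of all 35116 promoters in the table, 42.6% hold GGGCGG, 32.0% CCAAT, 10.7% TATAAA and 3.02% GAAANNGAAA. These are matches of letters and not binding sites.

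The class I heavy chains HLA-B and HLA-C went from almost no reads to low levels. HLA-B was at 0, 0 and 0.504 CPM in untreated replicates 1 to 3 and at 2.59, 5.08 and 5.12 CPM in treated ones (log2 fold change 4.71, SE 0.65, adjusted p 0.00182). HLA-C was at 0 counts in all 3 untreated libraries and at 0.363, 0.939 and 1.46 CPM in treated ones, at least 6.87-fold higher (adjusted p 0.00134). Both rose in every pair without overlap, and as these genes are near-identical in sequence and highly variable between people, reads could be split among them or lost. HLA-E was at 246, 423 and 456 CPM untreated and at 279, 707 and 769 CPM treated, which did not pass (adjusted p 0.165).

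The peptide supply genes split. PSMB9 stood at 0, 2.46 and 3.8 CPM in untreated replicates 1 to 3 and at 13.3, 83.7 and 33.8 CPM in treated ones (log2 fold change 4.70, SE 0.87, adjusted p 0.00839). Its divergent neighbour TAP1 stood at 4.06, 23.7 and 23.1 CPM and then at 9.69, 71.1 and 62.3 CPM (1.44, SE 0.37, adjusted p 0.0348). Both were low in replicate 1 of either group, so that TAP1 rose within each pair while its groups overlapped. PSMB8 was at 0 counts in every untreated library and at 0, 1.02 and 3.81 CPM in treated ones, at least 12-fold higher (adjusted p 0.0310). TAP2, the partner of TAP1, moved the other way, from 171, 163 and 153 CPM to 30.5, 127 and 97.6 CPM (-1.17, SE 0.32, adjusted p 0.0413). Treated replicate 1 was by far the lowest library for TAP2, and without it the adjusted p was 0.0961. ERAP1 (-0.82, adjusted p 0.0473) and PSMB10 (-0.92, adjusted p 0.0484) fell to a similar degree with no overlap of the groups, and B2M stood at 453 to 525 CPM in all 6 libraries. HLA-B and HLA-C were called in all 6 fits that left out 1 library and without the block. PSMB9 was lost only without treated replicate 2 (adjusted p 0.0554), and the list held 2 rises without that library. PSMB8, TAP1, TAP2, ERAP1 and PSMB10 were lost in 4 or 5 of these 6 cases, with adjusted p up to 0.213.

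**Figure D3:**
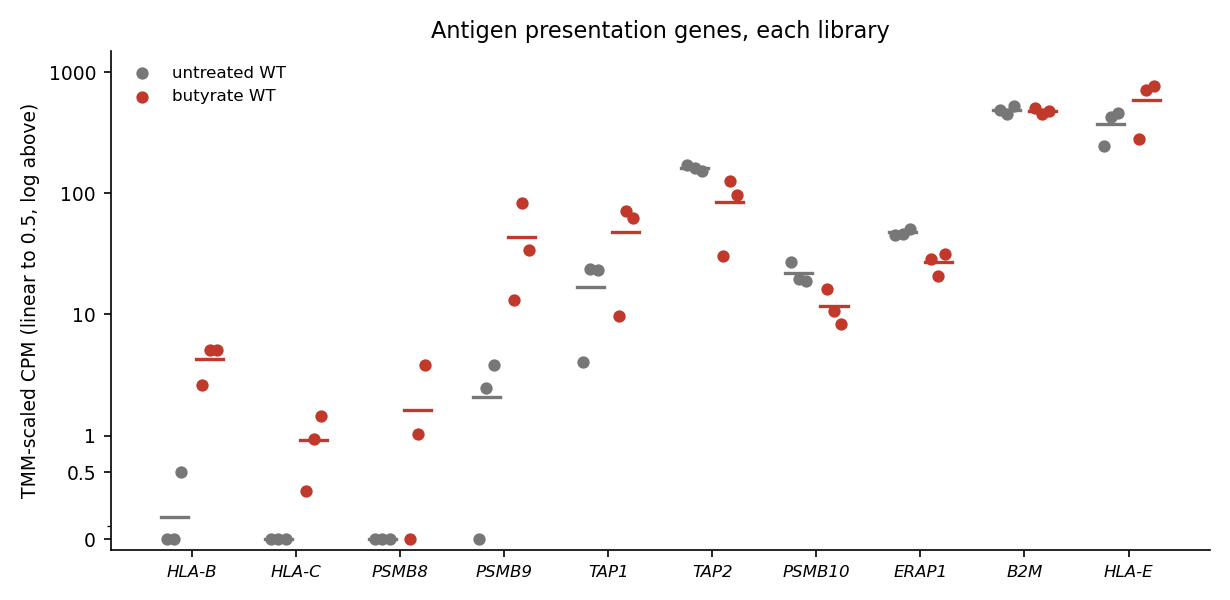
TMM-scaled CPM of 10 antigen presentation genes (vertical axis, linear up to 0.5 CPM and logarithmic above) in each untreated (grey) and treated (red) WT library; points of a group run from replicate 1 to 3 and lines are group means. HLA-B, HLA-C and PSMB9 lie higher in all treated libraries, TAP2, PSMB10 and ERAP1 lower, and B2M at one level.

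Interferon-stimulated genes were called about as often as all genes. Of 20 tested members 1 rose and 1 fell (10.0% called, near the 8.61% of all genes), and the median was 0.24. IFI6, a mitochondrial protein induced by interferon, went from 1.84, 1.39 and 1.38 CPM to 5.29, 14.6 and 11.1 CPM (log2 fold change 2.67, SE 0.40, adjusted p 0.00284). IFITM1, a membrane protein that restricts virus entry, went from 489, 272 and 281 CPM to 155, 104 and 159 CPM (-1.33, SE 0.27, adjusted p 0.0116). Neither gene had overlapping groups, and IFITM1 missed the threshold without treated replicate 2 (adjusted p 0.0642).

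Replication-dependent histone genes held rises and 0 falls. These genes encode the core and linker histones made in S phase, their mRNAs normally end in a stem loop in place of a poly(A) tail, and most lie in clusters on chromosomes 6 and 1. Of 44 tested members 20 rose and 0 fell (45.5% called, against 8.61% of all genes), with a median log2 change of 1.42, and the share whose groups did not overlap was 43.2% against 21.7% of all genes. By place, 17 of 40 tested members on chromosome 6 and 3 of 4 on chromosome 1 rose. Together the genes took 0.0884%, 0.0593% and 0.0761% of counts in untreated replicates 1 to 3 and 0.139%, 0.257% and 0.246% in treated ones (two-sided exact permutation p 0.1, the smallest possible, n = 3 per group). The promoters of the 2 members with the smallest adjusted p are shown with the same marks as above, both on the minus strand, H1-2 at chr6:26056471-26056720 and H4C12 at chr6:27831561-27831810.
H1-2: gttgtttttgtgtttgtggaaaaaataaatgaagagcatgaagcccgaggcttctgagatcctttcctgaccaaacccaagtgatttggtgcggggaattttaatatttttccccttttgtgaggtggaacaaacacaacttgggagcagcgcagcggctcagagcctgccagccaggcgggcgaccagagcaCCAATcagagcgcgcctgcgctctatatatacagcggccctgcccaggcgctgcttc
H4C12: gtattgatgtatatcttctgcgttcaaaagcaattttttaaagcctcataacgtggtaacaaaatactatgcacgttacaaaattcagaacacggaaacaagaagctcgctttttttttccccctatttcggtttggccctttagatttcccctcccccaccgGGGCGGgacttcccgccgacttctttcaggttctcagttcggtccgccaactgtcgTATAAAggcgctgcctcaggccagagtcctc
The H1-2 window holds 1 CCAAT, and the H4C12 window holds 1 GGGCGG and 1 TATAAA.

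H1-2, a linker histone, stood at 234, 168 and 239 CPM in untreated replicates 1 to 3 and at 514, 970 and 753 CPM in treated ones (log2 fold change 1.85, SE 0.30, adjusted p 0.00419). H4C12, a copy of histone H4, went from 3.03, 2.69 and 3.50 CPM to 6.53, 13.4 and 15.0 CPM (1.88, SE 0.33, adjusted p 0.00603). In both genes every treated library was above every untreated one, with replicate 1 the lowest of the treated. H2BC12, an H2B gene, was highest in replicate 1 of both groups, at 486, 240 and 256 CPM untreated and 857, 664 and 511 CPM treated (1.08, SE 0.20, adjusted p 0.00839). H4C11 (1.64, adjusted p 0.0109) was also among the 4 with the smallest adjusted p. For several others replicate 1 showed little change: H2BC8 was at 3.63 CPM untreated and 3.68 CPM treated in replicate 1, but at 4.04 and 6.05 CPM against 44.1 and 47.5 CPM in replicates 2 and 3 (2.54, adjusted p 0.0234). H2BC8 is named after its values were seen. Over the list the median change was 0.20 in pair 1, 1.73 in pair 2 and 1.84 in pair 3. Calls rose to 29 without treated replicate 1 and came to 2 without untreated replicate 2, 3 without treated replicate 2, 5 without treated replicate 3, 6 without untreated replicate 3 and 4 without the block; H1-2 and H4C12 were called in all 6 fits. The highest adjusted p in those fits was 0.0503 for H2BC12, 0.0659 for H4C11 and 0.139 for H2BC8. How the libraries selected polyadenylated or total RNA is not given in the sources used here, and copies of a histone type share sequence, so the split among them is uncertain. The 9 tested variant and replacement histones, which are also made outside S phase, held 0 calls in edgeR and a median of 0.12. Of these genes 3 had an unadjusted p under 0.05 in edgeR, and 1 rose in DESeq2.

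**Figure D4:**
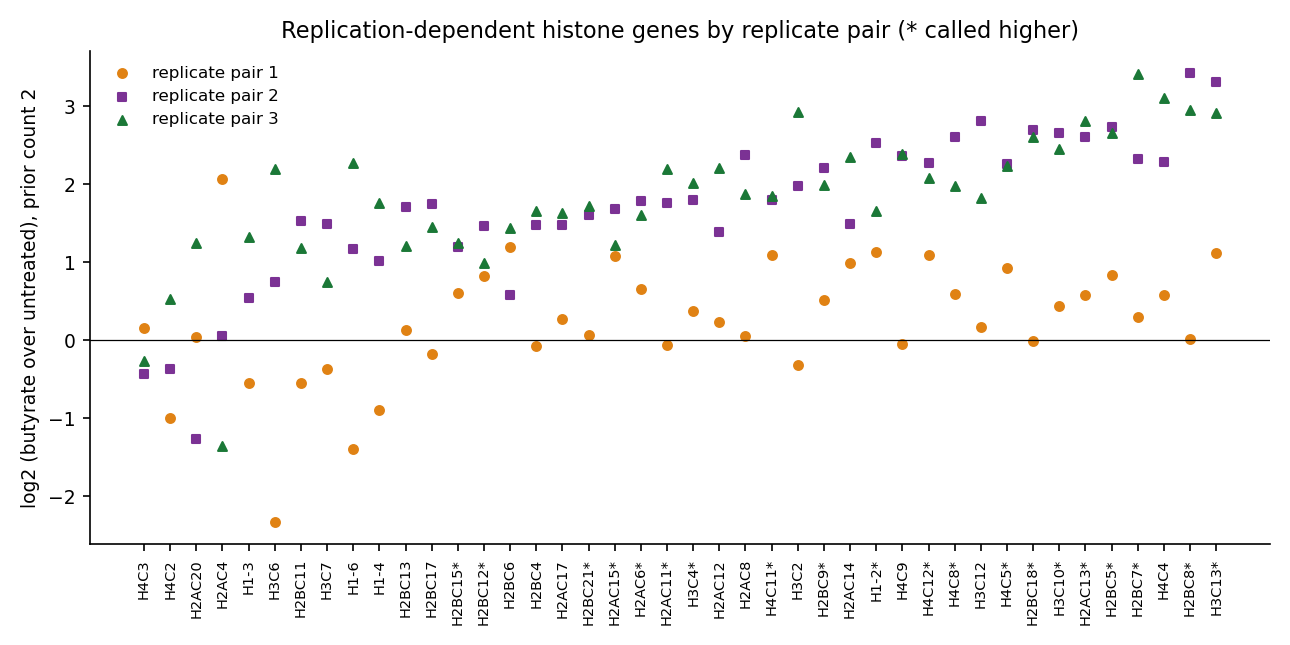
Log2 difference of butyrate over untreated with a prior count of 2 (vertical axis) within replicate pairs 1, 2 and 3 for the 42 replication-dependent histone genes above the floor of 3 counts in at least 1 WT library of either group, ordered by fitted change; an asterisk marks the 20 called higher. Pairs 2 and 3 lie well above 0 for most genes and pair 1 lies near 0 for many.

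Lists of cell cycle genes held 1 or 2 calls each at these thresholds. Of 5 tested CDK inhibitors 1 rose (20% called, against 8.61% of all genes), CDKN2D, which binds CDK4 and CDK6. CDKN2D went from 4.87, 6.26 and 4.44 CPM in untreated replicates 1 to 3 to 27.1, 13.6 and 13.8 CPM in treated ones (log2 fold change 1.76, SE 0.32, adjusted p 0.00746). Its groups were well apart, with treated replicate 1 the highest. CDKN1C stood at 46.2, 42.3 and 55.3 CPM and then at 121, 92.0 and 92.8 CPM (1.15, SE 0.39, adjusted p 0.0830), and CDKN1A, which encodes p21 and is named after its values were seen, at 14.4, 31.5 and 21.9 CPM and then at 26.0, 63.5 and 50.7 CPM (1.02, SE 0.29, adjusted p 0.0517). Neither passed, although each was higher in all 3 pairs. The CDK inhibitor list held 3 rises with DESeq2, 3 with the WT libraries alone and 3 without a filter on low counts. Of 22 G1 cyclins, CDKs and E2F factors 2 fell, CDK6 (-0.95, adjusted p 0.0224) and cyclin D2, CCND2 (-1.22, adjusted p 0.0265), of 43 DNA replication genes TK1, a thymidine kinase, rose (0.84, adjusted p 0.0249) and the thymidylate synthase gene TYMS fell (-1.38, adjusted p 0.0313), and of 42 mitosis and spindle genes MAD2L1 (-0.72, adjusted p 0.0174) and AURKA (-0.62, adjusted p 0.0445) fell. The share called was 9.09%, 4.65% and 4.76% in these 3 lists, near or below the 8.61% of all genes. Fitted changes below 0 were found for 15 of 22, 36 of 43 and 28 of 42 members, with medians of -0.12, -0.18 and -0.18. Over all tested genes 7871 of 15805 were below 0, and bins 4 and 5 by level had medians of -0.11 and -0.13. CDK6 went from 168, 150 and 158 CPM to 126, 61.7 and 66.6 CPM, so that replicate 1 moved least, and TYMS from 33.6, 26.6 and 22.1 CPM to 24.1, 6.87 and 6.13 CPM, again with replicate 1 the highest of the treated libraries. All 6 calls of these last 3 lists were lost on leaving out 1 library in 4 or 5 of the 6 cases, those without treated replicate 2 or 3 among them, with adjusted p up to 0.205, while without treated replicate 1 the lists held 4, 3 and 3 calls.

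Calls among genes of nucleotide synthesis were falls. Of 20 tested members 6 fell and 0 rose (30% called, against 8.61% of all genes and 3.14% called lower), with a median of -0.52. CTPS2, which makes CTP, went from 28.6, 35.8 and 38.3 CPM in untreated replicates 1 to 3 to 13.5, 14.7 and 15.3 CPM in treated ones (log2 fold change -1.24, SE 0.22, adjusted p 0.00688). ATIC, for the last steps of purine synthesis, went from 234, 204 and 180 CPM to 134, 134 and 118 CPM (-0.68, SE 0.14, adjusted p 0.0128). In both genes all treated libraries lay below all untreated ones. The purine enzymes PFAS (-0.97, adjusted p 0.0231) and PAICS (-0.54, adjusted p 0.0356) fell too. Calls numbered 10 without treated replicate 1, 2 without the block, 1 without treated replicate 3 and 2 in each of the other 4 fits that left out 1 library. CTPS2 was called in all 6 of them, while the adjusted p reached 0.0645 for ATIC, 0.105 for PFAS and 0.158 for PAICS.

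Among ribosome biogenesis and mitochondrial genes most members did not pass, and the calls were falls. Of 30 ribosome biogenesis genes 4 fell and 0 rose (13.3% called), and 29 had a fitted change below 0 (median -0.40). UTP20, a factor for small subunit processing, went from 52.7, 20.1 and 32.0 CPM to 23.6, 8.41 and 6.2 CPM (log2 fold change -1.64, SE 0.29, adjusted p 0.00646): it fell within every pair, and the groups overlapped because replicate 1 was high in both. NOP10, of the box H/ACA particles, fell as well (-0.69, adjusted p 0.0247, at most 0.110 on leaving out 1 library), as did WDR12 (-0.62, adjusted p 0.0392, at most 0.189) and MYBBP1A (-0.99, adjusted p 0.0364, at most 0.167), both named after their values were seen. Of 77 mitochondrial ribosomal protein genes 12 fell and 0 rose (15.6% called, median -0.34), led by MRPS35 (-0.89, adjusted p 0.0110, at most 0.0645) and MRPS9 (-0.83, adjusted p 0.0259, at most 0.139). Of 81 nuclear-encoded respiratory chain genes 8 fell and 0 rose, and the 9.88% called was near the 8.61% of all genes. Their median was -0.30, with 70 below 0, against 7871 of all 15805 tested genes. In bins 4 and 5 by level the medians over all genes were -0.11 and -0.13. NDUFB2, a complex I subunit, went from 37.7, 18.8 and 21.1 CPM to 11.5, 9.60 and 9.22 CPM (-1.29, SE 0.21, adjusted p 0.00468), without overlap. By contrast 0 of 83 cytosolic ribosomal protein genes fell, and the 1 that rose was RPL3L, a muscle-type form of RPL3 at 0.101 to 2.7 CPM (2.77, adjusted p 0.0316, at most 0.121); their median was -0.10. The lists rest on few libraries: calls of ribosome biogenesis numbered 12 without treated replicate 1 and 1 without untreated replicate 1 or treated replicate 2 or 3, those of mitochondrial ribosomal proteins 15 and 0 without treated replicates 1 and 2, and those of the respiratory chain 8 and 1 likewise. Without the block they numbered 0, 0 and 1.

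**Figure D5:**
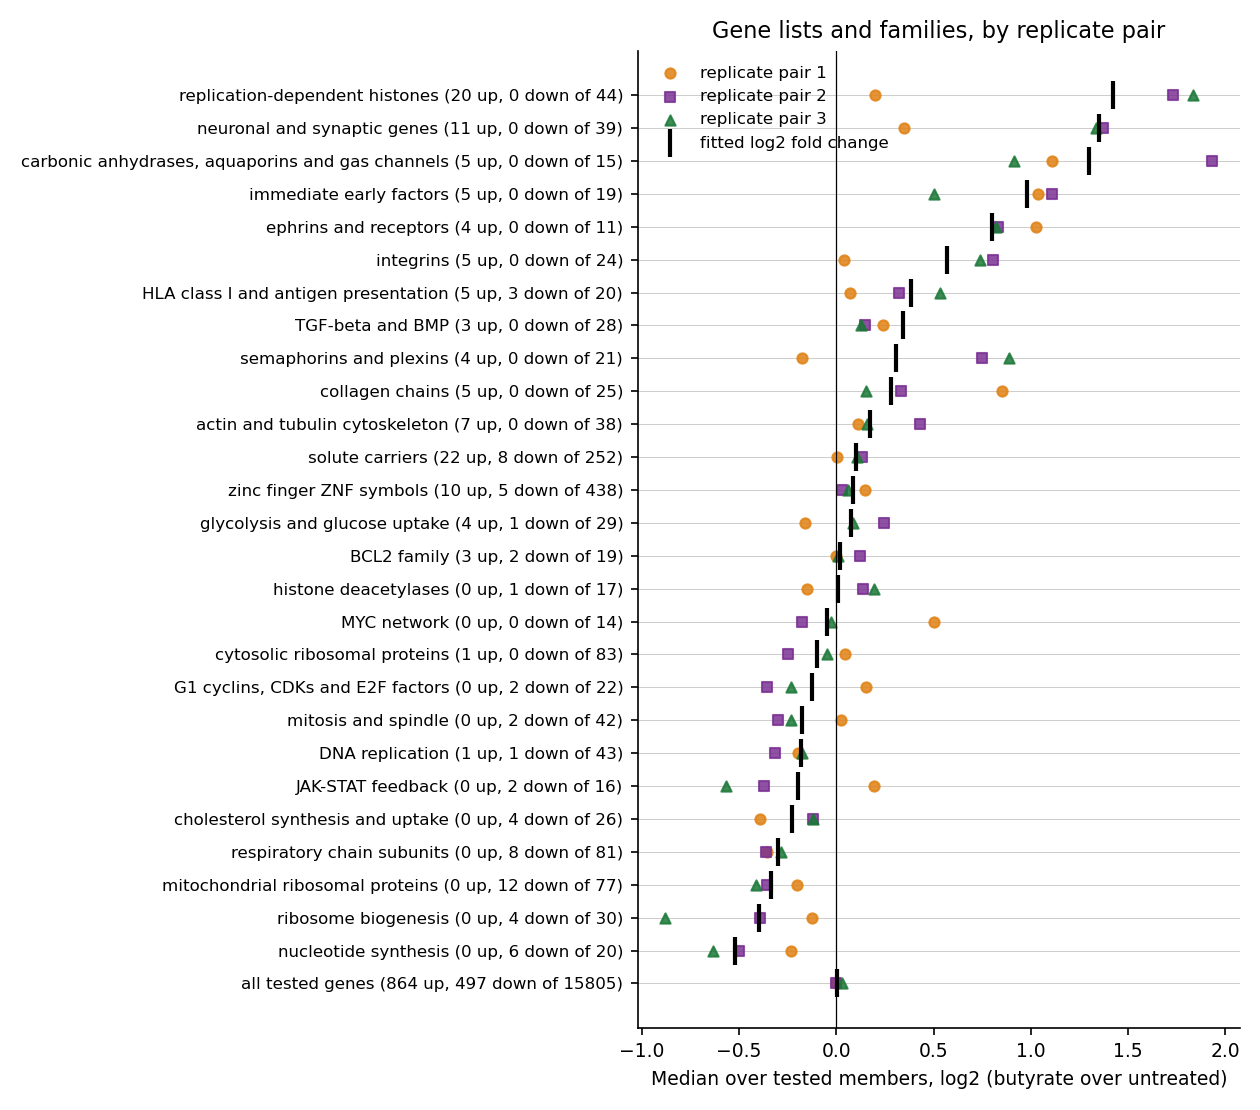
Median log2 change of butyrate over untreated (horizontal axis) over the tested members of 27 gene lists and families and over all tested genes, as fitted (black bars) and within replicate pairs 1, 2 and 3 (coloured points). The highest fitted median drawn is 1.42 for replication-dependent histones and the lowest -0.52 for nucleotide synthesis, and pair 1 lies far from pairs 2 and 3 for histones and for neuronal genes.

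Genes typical of neurons and synapses were among the rises. Of 39 tested neuronal and synaptic genes 11 rose and 0 fell (28.2% called, against 8.61% of all genes and 5.47% called higher), with a median log2 change of 1.35, or 1.41 with genes at the floor set to their bounds. SYP, which encodes the synaptic vesicle protein synaptophysin, stood at 4.98, 3.29 and 3.19 CPM in untreated replicates 1 to 3 and at 47.1, 81.1 and 51.5 CPM in treated ones (log2 fold change 3.94, SE 0.45, adjusted p 0.000945). It was high in all 3 treated libraries, well clear of the untreated ones. TMEM59L went from 0, 0.325 and 0.135 CPM to 0.778, 12.7 and 8.61 CPM (5.38, SE 0.75, adjusted p 0.00195), and TMEM145 from 1.52, 0.650 and 1.01 CPM to 9.28, 16.2 and 10.5 CPM (3.48, SE 0.49, adjusted p 0.00215). The adhesion molecule L1CAM went from 0.542, 0.510 and 5.08 CPM to 4.82, 76.2 and 74.7 CPM (4.59, adjusted p 0.00555), with replicate 1 of the treated libraries below the highest untreated one. GRIN1, the obligatory subunit of NMDA receptors, was at or under 3 counts in untreated cells and at 0.155, 2.94 and 1.49 CPM in treated ones, at least 11.4-fold higher (adjusted p 0.0137, at most 0.0953 on leaving out 1 library). L1CAM and GRIN1 are named after their values were seen. Calls numbered 15 without treated replicate 1, 5 without treated replicate 2, 6 without untreated replicate 2, 7 without untreated replicate 3 and 6 without the block, and 5 of the 11 held in all 6 fits.

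Apoptosis regulators of the BCL2 family held calls in both directions. Of 19 tested members 3 rose and 2 fell (26.3% called), and the median was 0.02. Each of the 3 that rose encodes a BH3-only protein, a class that promotes cell death. BMF stood at 0.812, 4.18 and 11.4 CPM in untreated replicates 1 to 3 and at 18.1, 40.5 and 52.5 CPM in treated ones (log2 fold change 3.01, SE 0.48, adjusted p 0.00381). It rose within every pair although the untreated libraries themselves spread widely. BCL2L11, which encodes BIM, went from 20.3, 22.6 and 24.5 CPM to 72.1, 40.3 and 32.5 CPM (1.05, SE 0.24, adjusted p 0.0195), and BIK rose at a low level (2.09, adjusted p 0.0274). BID, also a BH3-only gene, fell from 85.2, 76.1 and 72.0 CPM to 48.4, 44.2 and 34.1 CPM (-0.88, SE 0.18, adjusted p 0.0135). BCL2, which protects from apoptosis and is named after its values were seen, went from 7.37, 11 and 4.64 CPM to 1.76, 1.41 and 3.21 CPM (-1.82, SE 0.47, adjusted p 0.0338). All 5 had groups that did not overlap. Only BMF held in all 6 fits that left out 1 library: BCL2L11 was lost without untreated replicate 1 or 2, BID without untreated replicate 2 or treated replicate 3, BCL2 without either of untreated replicates 1 and 2 or without treated replicate 2, and BIK in 5 fits, with adjusted p up to 0.153. Without the block BCL2L11 (adjusted p 0.0439) and BID (0.0361) passed and the other 3 did not.

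Immediate early transcription factors held rises only. Of 19 tested members 5 rose and 0 fell (26.3% called, against 8.61% of all genes), with a median of 0.98. IER5 went from 64.1, 53.7 and 79.9 CPM in untreated replicates 1 to 3 to 127, 132 and 144 CPM in treated ones (log2 fold change 1.04, SE 0.16, adjusted p 0.00299), and FOS, a subunit of AP-1, from 1.08, 1.81 and 3.53 CPM to 4.51, 18.6 and 16.2 CPM (2.58, SE 0.46, adjusted p 0.00662). For both genes the groups did not overlap. NR4A1, an orphan nuclear receptor, rose (1.40, adjusted p 0.00746, 0.0525 without untreated replicate 2), as did JUN (1.38, adjusted p 0.0232, at most 0.103) and EGR2, a zinc finger factor named after its values were seen, which was at 0 in untreated cells and at least 4.32-fold higher in treated ones (adjusted p 0.0355, at most 0.157). The list held 2 calls without untreated replicate 2 and 2 without the block. Among 28 genes of TGF-beta and BMP signalling 3 rose and 0 fell, and the 10.7% called was near the 8.61% of all genes. ID2, an inhibitor of basic helix-loop-helix factors, went from 14.9, 22 and 32.0 CPM to 87.0, 111 and 95.4 CPM (2.16, SE 0.32, adjusted p 0.00272). Its relative ID3 rose by a like amount (2.17, adjusted p 0.0254, at most 0.0855), and the ligand BMP6 rose from near 0 (4.11, adjusted p 0.0286, at most 0.178), in 2 of 3 pairs. The TGF-beta list held 1 call without treated replicate 2.

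In the JAK-STAT list, where SOCS genes act as feedback inhibitors, 2 of 16 genes fell (12.5% called, against 8.61% of all genes). The list held 5 falls without treated replicate 1, 0 without treated replicate 2 and 1 without treated replicate 3 or untreated replicate 2 or 3. SOCS2 went from 119, 176 and 88.7 CPM in untreated replicates 1 to 3 to 57.2, 47.2 and 53.1 CPM in treated ones (log2 fold change -1.26, SE 0.22, adjusted p 0.00708). STAT5A, a transcription factor below the erythropoietin receptor, went from 766, 712 and 816 CPM to 588, 169 and 121 CPM (-1.65, SE 0.39, adjusted p 0.0231). Treated replicate 1 kept most of its STAT5A, and without that library the adjusted p was 0.000585, whereas it was above 0.05 without treated replicate 2 or 3 or untreated replicate 2 or 3, at most 0.123. SOCS2 reached 0.0502 without treated replicate 2. Guidance receptors and ligands also changed. Among 11 tested ephrins and ephrin receptors 4 rose and 0 fell (36.4% called), led by the receptor EPHB6, which went from 29.5, 20.1 and 37.0 CPM to 152, 239 and 104 CPM (2.44, SE 0.32, adjusted p 0.00158), and the ligand EFNA3 (1.17, adjusted p 0.0121, at most 0.0763). The ligand EFNA2 (2.67, adjusted p 0.0393, at most 0.187) and the receptor EPHB3 (at least 4.29-fold, adjusted p 0.0151, at most 0.122, in 2 of 3 pairs), named after their values were seen, were near the floor. EPHB6 alone was called on leaving out any 1 library, and in 4 of those fits the family held 2 calls. Among 21 semaphorins and plexins 4 rose (19.0% called), with SEMA7A (1.77, adjusted p 0.0100, at most 0.0587) and SEMA4D (1.25, adjusted p 0.0111, at most 0.0629) first, then SEMA4F (1.61, adjusted p 0.0380) and SEMA6B (1.44, adjusted p 0.0427, in 2 of 3 pairs), both named after their values were seen. Of these 4, 0 were called in all 6 fits.

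In 3 lists of matrix, adhesion and cytoskeleton genes all calls were rises, and most members did not pass. Of 25 tested collagen genes 5 rose (20% called, against 8.61% of all genes), and COL1A1, a chain of type I collagen, had one of the smallest adjusted p-values of all genes. It stood at 1.62, 3.29 and 4.24 CPM in untreated replicates 1 to 3 and at 43.2, 108 and 91.4 CPM in treated ones (log2 fold change 4.70, SE 0.34, adjusted p 0.000110). COL18A1, a basement membrane collagen, went from 135, 159 and 223 CPM to 483, 418 and 398 CPM (1.37, SE 0.19, adjusted p 0.00229), and COL6A1 rose as well (4.21, adjusted p 0.00480). All 3 were free of overlap between the groups. The cartilage collagens COL9A2 (2.13, adjusted p 0.00587) and COL9A3 (1.76, adjusted p 0.0400, at most 0.199) rose too and are named after their values were seen. Of 24 integrin genes 5 rose (20.8% called), with ITGB2, ITGA2B and ITGB3 described elsewhere. ITGAM, the alpha chain that pairs with ITGB2, went from 0.108, 1.16 and 1.85 CPM to 2.07, 7.38 and 7.02 CPM (2.50, SE 0.41, adjusted p 0.00464), and ITGA7, a laminin receptor chain, rose as well (2.94, adjusted p 0.0127, at most 0.0750). The integrin family held 2 calls without untreated replicate 2 and 2 without the block.

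Of 38 actin and tubulin cytoskeleton genes 7 rose (18.4% called). TUBA1A, an alpha tubulin, went from 77.4, 57.6 and 73.7 CPM in untreated replicates 1 to 3 to 159, 197 and 193 CPM in treated ones (log2 fold change 1.39, SE 0.20, adjusted p 0.00242). GSN, the actin-severing protein gelsolin, went from 15.8, 19.4 and 30.9 CPM to 44.6, 118 and 89.97 CPM (1.88, SE 0.27, adjusted p 0.00254). Both genes were higher in every treated library. MYL9, a myosin light chain (1.93, adjusted p 0.00746), and CNN1, which encodes calponin (1.28, adjusted p 0.00948, 0.0591 without untreated replicate 2), rose too. The list held 3 calls without untreated replicate 2, 4 without untreated replicate 3 or treated replicate 2 and 4 without the block.

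Genes for membrane channels and gas exchange, several of them of red cells, were among the rises. Of 15 tested carbonic anhydrases, aquaporins and gas channels 5 rose and 0 fell (33.3% called), with a median log2 change of 1.30, and all 5 were called without the block and on leaving out any 1 WT library. RHCE and RHD encode the Rh blood group proteins. RHCE went from 3.63, 7.10 and 7.46 CPM in untreated replicates 1 to 3 to 38.8, 33.9 and 25.8 CPM in treated ones (log2 fold change 2.38, SE 0.32, adjusted p 0.00162), and RHD from 8.50, 9.23 and 14.0 CPM to 41.5, 35.5 and 31.9 CPM (1.75, SE 0.26, adjusted p 0.00299). The other rises were of AQP1 and of carbonic anhydrases. RHCE and RHD are near-identical, so their reads may be shared, but their treated libraries all lay above the untreated ones. AQP1, the water channel of the red cell membrane, went from 6.82, 5.43 and 15.5 CPM to 98.0, 31.6 and 49.4 CPM (2.60, SE 0.40, adjusted p 0.00330). For all 3, treated replicate 1 was the highest library.

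Solute carriers, a family of 252 tested membrane transporters, held 22 rises and 8 falls (11.9% called, against 8.61% of all genes), of which 13 were called in all 6 fits. The family held 12 rises and 4 falls without treated replicate 2, 12 and 6 without untreated replicate 2, and 10 and 3 without the block. SLC7A8, a carrier of neutral amino acids, went from 29.5, 20.7 and 40.7 CPM in untreated replicates 1 to 3 to 211, 191 and 137 CPM in treated ones (log2 fold change 2.53, SE 0.32, adjusted p 0.00132). SLC22A17, a receptor for lipocalin (3.91, adjusted p 0.00160), and SLC5A5, the iodide symporter of the thyroid (4.0, adjusted p 0.00177), rose from under 1 CPM. Zinc carriers moved apart: SLC30A3, which loads zinc into vesicles, rose (1.75, adjusted p 0.00253), and SLC39A14, an importer of zinc and iron, fell from 124, 99.8 and 79.4 CPM to 52.9, 34.1 and 42.8 CPM (-1.20, SE 0.21, adjusted p 0.00637). Among 29 genes of glycolysis and glucose uptake 4 rose and 1 fell (17.2% called, against 8.61% of all genes), but the list held 2 rises and 0 falls without untreated replicate 1 or 2 or treated replicate 2, and 1 rise and 0 falls without the block. ENO2, the neuronal enolase, rose within every pair, from 31.6, 42.1 and 79.8 CPM to 54.3, 128 and 174 CPM (1.17, SE 0.21, adjusted p 0.00638), with groups that overlapped. PFKFB2, which makes an activator of phosphofructokinase, went from 43.8, 30.4 and 49.96 CPM to 92.8, 108 and 105 CPM (1.28, SE 0.25, adjusted p 0.0100) and was higher in every treated library. The glucose transporter SLC2A1 (1.42, adjusted p 0.0389) was highest in treated replicate 1, at 527 CPM, and its adjusted p was 0.0947 without that library. Its call was also lost without untreated replicate 1 or 2 or treated replicate 2 (adjusted p at most 0.165). SLC2A6, a related transporter named after its values were seen, rose (2.38, adjusted p 0.0449, at most 0.187), and LDHB, a lactate dehydrogenase subunit, fell (-0.57, adjusted p 0.0305, at most 0.118).

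Lipid synthesis and the metabolism of butyrate itself showed a few changes. Of 26 genes of cholesterol synthesis and uptake 4 fell and 0 rose (15.4% called, against 8.61% of all genes and 3.14% called lower). Fitted changes were below 0 for 20 of them, with a median of -0.23, and for 7871 of all 15805 tested genes. The list held 2 falls without untreated replicate 1 or 2 or treated replicate 2, and 1 without the block. CYP51A1, the lanosterol demethylase, went from 182, 123 and 169 CPM in untreated replicates 1 to 3 to 76.1, 46.0 and 70.4 CPM in treated ones (log2 fold change -1.30, SE 0.20, adjusted p 0.00345), and ACAT2, an acetoacetyl-CoA thiolase, from 140, 84.3 and 84.0 CPM to 82.1, 29.8 and 35.7 CPM (-1.15, SE 0.19, adjusted p 0.00500). Neither gene had overlapping groups. SC5D, a sterol desaturase named after its values were seen, also fell (-0.77, adjusted p 0.0396, at most 0.191). Of 13 genes for butyrate transport, sensing and oxidation 1 rose and 2 fell (23.1% called), with 0 calls without untreated replicate 2. ACSS1, a mitochondrial acetyl-CoA synthetase, went from 0.487, 0.371 and 0.874 CPM to 4.25, 4.82 and 4.77 CPM (2.98, SE 0.60, adjusted p 0.0156, at most 0.0834), while ACADS, the short-chain acyl-CoA dehydrogenase, went from 25.0, 32.9 and 34.2 CPM to 8.4, 16.5 and 21.6 CPM (-1.08, SE 0.22, adjusted p 0.0131, 0.0667 without untreated replicate 2). BDH2, a hydroxybutyrate dehydrogenase, fell (-0.94, adjusted p 0.0326, at most 0.165).

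Histone deacetylase genes held 1 call. Of 17 tested members, which include the sirtuins, 0 rose and 1 fell (5.88% called), with a median of 0.008 and 5 at an unadjusted p under 0.05. DESeq2 and the fit without treated replicate 1 each held 1 rise and 1 fall. HDAC7, of class IIa, fell from 244, 219 and 190 CPM in untreated replicates 1 to 3 to 115, 94.1 and 92.6 CPM in treated ones (log2 fold change -1.12, SE 0.26, adjusted p 0.0239). Its groups did not overlap, but the adjusted p reached 0.113 when 1 library was left out. HDAC1 and HDAC2 stood at 177 to 242 CPM and 150 to 257 CPM in the 6 libraries. Of 25 genes of the corepressor complexes that carry these enzymes 2 fell (8.0% called, against 8.61% of all genes). They were CHD3, a remodeller of the NuRD complex (-1.13, SE 0.19, adjusted p 0.00517), and MTA3 of the same complex (-0.77, adjusted p 0.0286, at most 0.157). CHD3 went from 79.4, 74.2 and 75.5 CPM to 34.4, 29.1 and 40.8 CPM, with close replicates in both groups. Heat shock genes rose in 2 of 21 cases (9.52% called, near the 8.61% of all genes). They were DNAJB2 (2.15, adjusted p 0.00284) and DNAJB1 (1.34, adjusted p 0.00517), both of the HSP40 family. Of 20 endoplasmic reticulum chaperones 0 were called in edgeR (median -0.48, with 18 below 0, 8 at an unadjusted p under 0.05 and 4 falls in DESeq2). Over all tested genes 7871 of 15805 were below 0.

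Markers of blood lineages were followed as lists. Of the 12 erythroid identity markers 5 rose and 0 fell (41.7% called, against 8.61% of all genes), HBG1, HBG2, ALAS2 and SLC4A1 among the rises. Fitted changes were above 0 for 9 markers and below 0 for 3. The median change of these markers was 1.575 in pair 1, 0.41 in pair 2 and -0.06 in pair 3. Without treated replicate 1 the erythroid list held 5 rises and 1 fall, with a median of 0.09. Of 16 tested megakaryocyte and platelet markers 4 rose and 2 fell (37.5% called), against 1 rise and 0 falls without untreated replicate 2. ITGA2B, the alpha chain of the platelet fibrinogen receptor, went from 33.0, 26.2 and 49.5 CPM in untreated replicates 1 to 3 to 208, 95 and 106 CPM in treated ones (log2 fold change 1.98, SE 0.42, adjusted p 0.0155, 0.0787 without untreated replicate 2), and its partner ITGB3 rose (1.92, adjusted p 0.0414). THBS1, which encodes thrombospondin, went from 0.271, 0.325 and 0.269 CPM to 3.42, 2.18 and 1.14 CPM (2.79, SE 0.36, adjusted p 0.00154). The regulator RUNX1 rose (1.03, adjusted p 0.0321), GP6 (-0.72, adjusted p 0.0411) and ARHGAP6 (-0.79, adjusted p 0.0319) fell, and the platelet glycoprotein gene GP9 was at 0 counts in all 6 libraries. The summed level of the list was 736 to 1102 CPM untreated and 615 to 1345 CPM treated, so the groups overlapped. ITGB3, RUNX1, GP6 and ARHGAP6 each lost the call in 5 of the 6 cases of leaving out 1 library, with adjusted p up to 0.188.

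Of 14 monocyte and granulocyte markers 2 rose (14.3% called), ITGAM, described among the integrins, and CSF1R, the receptor of a macrophage growth factor, which was at the floor in untreated cells and at 0.104, 0.726 and 0.763 CPM in treated ones, at least 3.96-fold higher (adjusted p 0.0379, at most 0.162). Of 6 mast cell and basophil markers 2 rose and 1 fell (50% called, against 8.61% of all genes). PRG2, the major basic protein of eosinophil granules, went from 17, 8.86 and 10.7 CPM in untreated replicates 1 to 3 to 626, 151 and 60.2 CPM in treated ones (log2 fold change 4.26, SE 0.58, adjusted p 0.00177). All treated libraries were far above the untreated ones, and replicate 1 was the highest of them. The stem cell factor receptor KIT rose (1.46, adjusted p 0.0376) and SRGN, a granule proteoglycan, fell (-1.03, adjusted p 0.0191), each lost in 5 of the 6 fits. Of 6 endothelial markers 2 rose (33.3% called), the junction protein ESAM and the receptor TIE1 (2.56, adjusted p 0.0142, at most 0.0829). Of 7 lymphoid markers 0 were called in edgeR, with 1 at an unadjusted p under 0.05 and 1 rise in DESeq2. Homeobox genes of the HOX clusters held 3 rises and 2 falls among 25 (20% called, against 8.61% of all genes). HOXC12 stood at 2.76, 6.40 and 6.56 CPM untreated and 10.7, 20.2 and 18.2 CPM treated (1.66, SE 0.28, adjusted p 0.00504). HOXB2 fell from 68.9, 46.0 and 52.4 CPM to 42.0, 11.01 and 9.12 CPM (-1.76, adjusted p 0.0110, at most 0.0664). HOXC13 (1.12) and HOXA11 (-2.71), named after their values were seen, were each lost in at least 4 of the 6 cases of leaving out 1 library.

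Some other families were counted as well. Of 31 ABC transporters 4 rose and 1 fell (16.1% called, against 8.61% of all genes), with 1 rise and 0 falls without treated replicate 2 and 0 calls without the block, and the members of this and the next 3 families are named after their values were seen. ABCG4, which exports sterols, was at or under 0.336 CPM in untreated libraries and at 0.207, 10.1 and 7.21 CPM in treated replicates 1 to 3 (log2 fold change 5.09, adjusted p 0.00682). Treated replicate 1 lay within the untreated range. ABCE1, which recycles ribosomes, went from 241, 169 and 185 CPM to 168, 83.1 and 71.6 CPM (-0.95, adjusted p 0.0159, at most 0.0957), and ABCA7 (1.14, at most 0.128) and ABCC10 (0.62, at most 0.182) rose. Among 53 RAB GTPases, which direct vesicle traffic, 7.55% were called: RAB3A (2.35, adjusted p 0.0182, at most 0.0964) and RAB3B (3.09, adjusted p 0.00182), both of regulated secretion, rose with RAB7B (at least 7.65-fold, adjusted p 0.0112, at most 0.0690), and RAB27A fell (-1.05, adjusted p 0.0265, at most 0.145). In the autophagy list 2 of 30 genes were called (6.67%), both cargo receptors: OPTN rose (1.71, adjusted p 0.00513) and NBR1 fell (-0.73, adjusted p 0.0216, at most 0.119). Of 327 long intergenic RNAs with LINC symbols 8 rose and 3 fell (3.36% called), of 497 antisense symbols 8 rose and 6 fell (2.82%) and of 438 zinc finger genes with ZNF symbols 10 rose and 5 fell (3.42%), all below the 8.61% of all genes. LINC02022 was at or under 3 counts in untreated libraries and at 0.622, 2.73 and 2.7 CPM in treated ones, at least 15.0-fold higher (adjusted p 0.000986), and LINC01215 went from 2.55, 3.90 and 2.66 CPM to 19.9, 13.4 and 10.6 CPM (2.25, adjusted p 0.00268), without overlap.

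Promoter letters were compared across all called genes, as the butyrate response of some promoters is known to involve GC boxes. A promoter was at hand for 11688 of the tested genes, giving 16667 windows of 250 bases. GGGCGG was present in 62.5% of the 906 windows of genes called higher, 59.3% of the 594 of genes called lower and 61.0% of the windows of all tested genes. CCAAT was present in 32.8%, 30.3% and 32.8%, TATAAA in 7.51%, 6.57% and 6.61%, and GAAANNGAAA in 1.88%, 2.86% and 2.51%, in the same order. For each motif the share among genes called higher lay close to that among all tested genes.

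The WT response was set against that of HRG1-KO cells by the interaction, the KO response minus the WT response. It passed the same test for 3 of 15805 genes (0.019%), and 1115 genes had an unadjusted p under 0.05. ESAM was one of them. In WT it stood at 0.162, 0.278 and 1.04 CPM in untreated replicates 1 to 3 and at 3.06, 13.1 and 11.6 CPM in treated ones (log2 fold change 4.09, SE 0.36, adjusted p 0.000176). In HRG1-KO cells it was already at 57.1, 164 and 142 CPM without butyrate and at 58.0, 144 and 122 CPM with it. The interaction was thus -4.21 (adjusted p 0.00456), with a treated WT level still below every KO library.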

How the data were processed

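RNA-seq of 12 K562 libraries was used, in 4 groups of 3 taken with their replicate numbers from the sample titles. The authors deposited 1 table of raw whole-number counts per gene symbol, a unit read from the values. Reads were checked with FastQC 0.12.1 and aligned with STAR 2.7.11b to hg38, per the submitters' processing notes, which list these names without roles. The counting tool, the annotation, the use of strand, RNA selection and any filter are not given in the sources used here, so reads of overlapping, antisense or near-identical genes cannot be told apart. Of 28278 genes, 15805 passed filterByExpr with a minimum count of 10. In R 4.3.3, edgeR 4.0.16 fitted group means and replicate number as a block to all 12 libraries after TMM scaling. The fit left 6 residual degrees of freedom and a biological coefficient of variation of 0.273. Its quasi-likelihood test was Benjamini-Hochberg adjusted over all tested genes with a threshold of 0.05, after the script was tested on simulated data. Standard errors are the log2 fold change divided by the square root of F. Where a whole group held 3 counts or fewer per library, the fold is a lower bound against 3 counts in each library.

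Deviations of WT libraries from their group means correlated at r = 0.409, 0.195 and 0.345 over genes for equal numbers, and at -0.439 to 0.186 for unequal ones. Untreated replicate 2 was about as close to treated replicate 3 (0.186) as to treated replicate 2 (0.195). Deviations within a group sum to 0, which lowers the unequal-number values where equal-number ones are positive. These values thus cannot establish the pairing. The numbers were taken to pair the samples from the titles and these values, and not from a stated culture or day. Named genes are the 12 largest rises and 12 largest falls among called genes with 1 direction in all 3 pairs and 50 counts or more in each of the 3 libraries where they are higher. Further named genes are up to 4 called members per list with the smallest adjusted p, and the lineage markers. Names outside this rule are marked. Members and lists were chosen with earlier results of these data known, and lists carry no test. Promoters came from the RefSeq table for GRCh38.p14. DESeq2 1.42.0, other scalings, filters and blocks and the leaving out of libraries served as alternatives. Mitochondrially encoded mRNAs and results for some single genes are not reported here.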

Additional observations from a re-analysis of the deposited data

Results flagged for a closer look

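For 3 genes a test of the difference between the butyrate responses of HRG1-KO and WT cells passed an adjusted p of 0.05 in edgeR's quasi-likelihood test. ESAM, which encodes a junction protein of endothelium and platelets, gave a KO response minus WT response of -4.21 on the log2 scale (adjusted p 0.00456), with the values per library given in the report. LINC01234, a long intergenic RNA, gave 3.19 (adjusted p 0.00456). It went from 25.7, 32.6 and 24.6 CPM to 42.2, 46.9 and 49.2 CPM in WT and from 1.66, 1.95 and 1.30 CPM to 21.8, 38.9 and 17.8 CPM in KO. Of the treated KO libraries, replicate 2 lay above every untreated WT library and replicates 1 and 3 below them. CD24, a small surface protein, gave 5.66 (adjusted p 0.0236). It went from 30.7, 28.4 and 38.1 CPM to 33.1, 53.3 and 91.7 CPM in WT and from 0, 0 and 0.134 CPM to 1.70, 4.92 and 8.12 CPM in KO, where untreated libraries were at or near the floor. LINC01234 and CD24 fall outside the naming rule and are named because the test passed.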

How the results depend on the processing

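The number of genes called between treated and untreated WT cells was 1361 (864 higher, 497 lower). Without the replicate block it was 372 (285 higher, 87 lower), and 85 of the 159 called genes that the text names lost their call. With the 6 WT libraries alone it was 526 (406 and 120), with DESeq2 2384 (1413 and 971), and without the libraries numbered 1 in all groups 2412 (1429 and 983). Leaving out 1 WT library gave 376 to 2001 calls (297 to 1155 higher, 79 to 846 lower). The block within each genotype, other scalings and other filters gave 1031 to 1608. The interaction, with 3 calls, gave 0 in edgeR without the block (658 genes at an unadjusted p under 0.05), 12 with the block within each genotype, 211 with DESeq2, 14 with library size alone, 98 without a filter, 26 without the libraries numbered 1, and 2 to 16 on leaving out 1 WT library. The cause of these shifts was not tested. Of the 159 called genes that the text names, 0 reversed direction in the fits that gave them a value. Such values covered 148 of them with the 6 WT libraries alone and 116 with at least 10 counts in every WT library. With DESeq2 0 of the 159 calls were lost. Calls were lost for 75 and 74 of them without untreated and treated replicate 2, and for 7 without treated replicate 1. Without the block the lists with fewer calls, where the report gives no such value, held 2 rises (HLA class I, semaphorins, collagens, megakaryocyte markers, HOX genes), 3 (erythroid markers), 1 (ephrins, TGF-beta, mast cell markers, butyrate metabolism, RAB GTPases) or 0 (monocyte markers, autophagy, histone deacetylases and the lists of G1, DNA replication and mitosis), with 0 falls in all of these, and 1 fall and 0 rises for JAK-STAT and corepressor genes. ZNF, LINC and antisense symbols then held 1, 3 and 2 rises and 2, 1 and 3 falls. The share of calls that were rises was 63.5%, against 66.9% with RLE size factors and 63.3% with library size alone.

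Counts of 3 or fewer per library limit the weakly expressed genes, where the median standard error was 0.93 on the log2 scale. Only 3 libraries stood in each group, and treated replicate 1 lay apart from the other treated libraries.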
